A study of Homo sapiens with 6 samples.

Results

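The hypoxic response of H460 cells that remained in the presence of BAY 87-2243 was described from 2 of the 6 arrays of the experiment, the hypoxic array with 100 nM compound and the normoxic array with 100 nM compound. They were chosen by their labels, and the difference between them was taken for each of 18417 genes. H460 is a human cell line from a large cell lung cancer, and BAY 87-2243 was studied as an inhibitor of the activity of the hypoxia-inducible factor HIF-1. The study reported that the compound inhibits complex I of the mitochondria and thereby lowers HIF protein under hypoxia. All cells were grown in medium with 10% fetal calf serum and then kept for 16 h in 0.5% serum, either under normoxia or under hypoxia at 1% pO2. The cells without compound received 0.1% dimethyl sulfoxide (DMSO), the solvent. The other 4 arrays were normoxia with DMSO, hypoxia with DMSO and hypoxia at a pair of lower concentrations. In the labels of the last pair the titles and the source names give the doses of 1 and 10 nM in opposite order. These arrays are named by their titles, and no order of dose was read from them.

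There was 1 array for each condition, so no difference was tested and none carries an error between cultures. Values are intensities, the brightness of a probe set on a linear scale in arbitrary units, and a difference is the log2 of the hypoxic over the normoxic value. A gene was called higher or lower at 2-fold or more, a size rule with no p-value. A gene is called brighter where the brighter of the arrays with 100 nM reached the median of all probe sets of that array (11433 genes), and dimmer otherwise (6984 genes). RNA was taken from whole cultures, so fewer cells carrying a transcript and less of it per cell cannot be told apart. Of the epithelial markers, the keratins KRT8, KRT18 and KRT19 lay between 7807 and 11671 on the arrays with 100 nM, whereas EPCAM was dim at 69.4 and 69.3 and CDH1 at 33.8 and 43.1. The markers of blood, endothelial and fibroblast cells had a median difference of -0.05 over 10 genes, and of 0.12 over the 3 of them that were brighter genes. The 3 were the fibroblast markers COL1A1 at 310 and 337, COL1A2 at 133 and 126, and PDGFRB at 161 and 205, while the other 7, all blood or endothelial markers but DCN, lay between 15.7 and 83.0.

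HIF-1 acts as a transcription factor when its HIF1A protein accumulates and pairs with ARNT. In oxygen, prolyl hydroxylases of the EGLN family mark HIF1A for binding by VHL and for degradation, and these enzymes slow when oxygen is scarce. The stabilised factor binds a short core sequence in front of genes of glycolysis, angiogenesis, pH control and mitophagy, and among its targets are EGLN3 and EGLN1 themselves.

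With 100 nM in both cultures, 27 genes were at least 2-fold higher under hypoxia (0.147% of all genes) and 12 were at least 2-fold lower (0.0652%). With DMSO in both cultures, 307 genes were higher (1.67%) and 677 were lower (3.68%). For 47 of the 307 and 273 of the 677, both arrays with 100 nM lay nearer to the hypoxic than to the normoxic DMSO array. The smaller counts with 100 nM therefore do not stand for normoxic-like values in all these genes. The 100 nM pair was the closest of all pairs among the 6 arrays, with r = 0.996 over the genes. Of all genes, 95% differed by less than 1.35-fold with 100 nM and by less than 2.03-fold with DMSO. The median difference over all genes was 0.01 with 100 nM and 0.08 with DMSO, and the latter was -0.04 when each array was centred on its median. Past 3-fold there were 5 genes higher and 2 lower with 100 nM, and 1 gene, ANGPTL4, was higher by more than 4-fold.

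**Figure D1:**
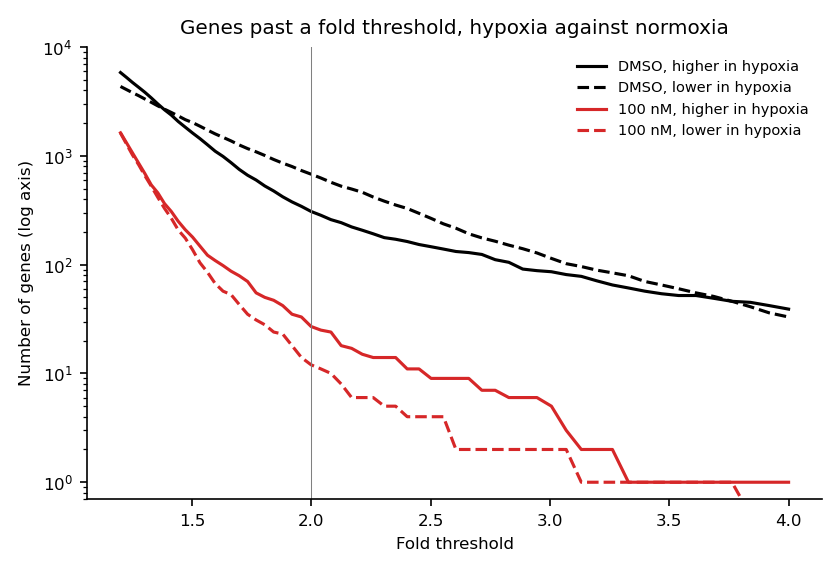
Number of genes (log axis) at or past a fold threshold (x axis) between hypoxia and normoxia, for the pair of arrays with DMSO (black) and with 100 nM compound (red), higher in hypoxia as solid and lower as dashed lines, 1 array a side. At 2-fold the counts were 27 higher and 12 lower with 100 nM, and 307 higher and 677 lower with DMSO.

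Of the 27 genes that were higher with 100 nM, 18 were brighter genes (0.157% of brighter genes). The other 9 were dim, with a median of 21.8 on their brighter array, and their differences rest on low signals. Of the 18, MIR21, SNRPA1, SNORA3B and FGF11 counted as brighter only through the hypoxic array, since their normoxic values with 100 nM were below the array median of 129.6. With 32 added to each intensity SNRPA1, SNORA3B, FGF11, INSIG2 and VLDLR fell under 2-fold. Of the 12 genes that were lower, 4 were brighter genes (0.035%). The brighter genes that were higher are described first, and 9 of these 18 are on the HIF target lists. Those lists were chosen with earlier results of these data known.

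ANGPTL4, a secreted inhibitor of lipoprotein lipase, had the largest difference. Its intensity with 100 nM was 511 under normoxia and 2088 under hypoxia, a log2 difference of 2.03. With DMSO it was 911 under normoxia and 6763 under hypoxia, a log2 difference of 2.89. The hypoxic value was above the normoxic value in both pairs, and both values were lower in the pair with compound.

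STC1, which encodes the secreted glycoprotein stanniocalcin, read 377 under normoxia and 1154 under hypoxia with 100 nM (1.61 on the log2 scale), and 676 and 2974 with DMSO (2.14). INHBA, the activin A subunit, had nearly the same values in both pairs. It read 465 and 987 with 100 nM and 480 and 1017 with DMSO, with log2 differences of 1.09 and 1.08. NRN1, the membrane-anchored neuritin, read 166 and 442 with 100 nM (1.42) against 597 and 2970 with DMSO (2.31). For NRN1 the hypoxic value with compound lay below the normoxic value with DMSO, which was so for 4 of the 18 genes (NRN1, INSIG2, EGLN3 and SNORA3B).

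Among enzymes of glucose metabolism, ENO2, an enolase isoform of glycolysis, read 424 under normoxia and 1256 under hypoxia with 100 nM (1.57), and 684 and 4548 with DMSO (2.73). PFKFB4, which sets the level of the glycolytic activator fructose-2,6-bisphosphate, read 130 and 306 with 100 nM (1.24), and 265 and 1061 with DMSO (a fold of 4 against 2.36). In both genes the difference on the log2 scale was smaller with the compound, and both normoxic and hypoxic values were below those of DMSO. NDRG1, a stress-responsive gene of hypoxic cells, read 1023 and 2537 with 100 nM (1.31) and 1070 and 7207 with DMSO (2.75), so that its normoxic values lay close together while its hypoxic values did not. INSIG2, an endoplasmic reticulum protein that retains the sterol sensor SCAP, read 150 and 313 with 100 nM (1.06) against 322 and 1503 with DMSO (2.22). EGLN3, the prolyl hydroxylase PHD3, read 572 and 1187 with 100 nM (1.05) against 1203 and 2399 with DMSO (0.995). The EGLN3 difference was therefore of like size in both pairs, at a lower level on both arrays with compound.

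The other 9 genes were on none of the HIF lists used here, which hold 83 genes. Absence from these lists does not show that a gene is no HIF target. AK4, a mitochondrial adenylate kinase, read 987 and 2097 with 100 nM (1.09), and its other probe set gave 0.86. ADSS1, an enzyme of purine nucleotide synthesis, read 513 and 1136 (1.15), FGF11 123 and 260 (1.07) and NXPH4, a neurexophilin, 666 and 1410 (1.08). With DMSO the log2 differences of these 4 genes were 1.27 for AK4, 1.27 for ADSS1, 2.13 for FGF11 and 2.03 for NXPH4. VLDLR, the very low density lipoprotein receptor, read 316 and 643 with 100 nM (1.03) and was just under 2-fold with DMSO (0.98). SNRPA1, a protein of the U2 spliceosomal particle, read 67.6 and 159 with 100 nM (1.24) and 54.3 and 148 with DMSO (1.45), so that both pairs covered nearly the same range.

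Small RNA genes were also among the leading differences. MIR21, the gene of the microRNA miR-21, read 47.9 and 147 with 100 nM (1.61), and 75.3 and 164 with DMSO (1.12). SNORD75, a C/D box small nucleolar RNA, read 527 and 1128 with 100 nM (1.10) but 408 and 305 with DMSO (-0.42). SNORA3B, an H/ACA box small nucleolar RNA, read 105 and 222 with 100 nM (1.08) but 250 and 203 with DMSO (-0.30). Its low value was that of the normoxic array with 100 nM alone, since the other 5 arrays lay between 203 and 275. Over the 192 small nucleolar RNA genes, a group formed after the values were seen, the median log2 difference with 100 nM was 0.19, 141 were above 0 (51.6% of all genes were), 4 were 2-fold higher (0.147% of all genes were) and 0 were 2-fold lower. Of these 4, 2 were brighter genes, namely SNORD75 and SNORA3B, whose values were known when the group was formed.

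The hairpin of MIR21 is shown to identify the locus. The array's probe set does not tell the hairpin from the longer primary transcript or from the mature arm, so its value is that of the gene. The capitals mark the mature strand miR-21-5p, whose seed begins at its second base. The coordinates and the sequence are those of RefSeq on GRCh38.p14.
MIR21 hairpin, chr17:59841266-59841337, plus strand: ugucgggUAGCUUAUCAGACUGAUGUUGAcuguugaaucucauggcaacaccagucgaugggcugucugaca

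Genes just outside the 2-fold rule were BNIP3L, a mitophagy receptor, at 2524 and 5038 (0.997 on the log2 scale), CACNG6, a calcium channel subunit, at 367 and 727 (0.99), the small nucleolar RNA SNORD30 at 631 and 1249 (0.98), and TCP11L2 at 207 and 408 (0.98). VLDLR and EGLN3 at 1.03 and 1.05 were the members nearest to it on the inside among brighter genes. The rule thus divides genes of nearly the same difference.

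Of the 27 genes higher with 100 nM, 14 were also higher with DMSO, which is 51.9% of the 27 and 4.56% of the 307. All 14 were brighter genes, 77.8% of the 18. The pairs of arrays share no array. Of the 307 genes higher with DMSO, 305 had a smaller difference with 100 nM and 273 were still above 0, with a median log2 difference of 0.28 against 1.29. Of all 18417 genes, 10018 had a difference with 100 nM below that with DMSO, and 9504 were above 0. Of the 677 genes lower with DMSO, the median was -0.15 with 100 nM against -1.25. Both sets were chosen by a large difference with DMSO, a choice that favours smaller ones with 100 nM. How much of the decrease comes from the choice was not tested. Across the 18417 genes the differences of both pairs had Pearson's r = 0.255 and Spearman's rho = 0.216, and across the 11433 brighter genes r = 0.465 and rho = 0.424. Genes are not independent replicates, and the arrays share their scaling.

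**Figure D2:**
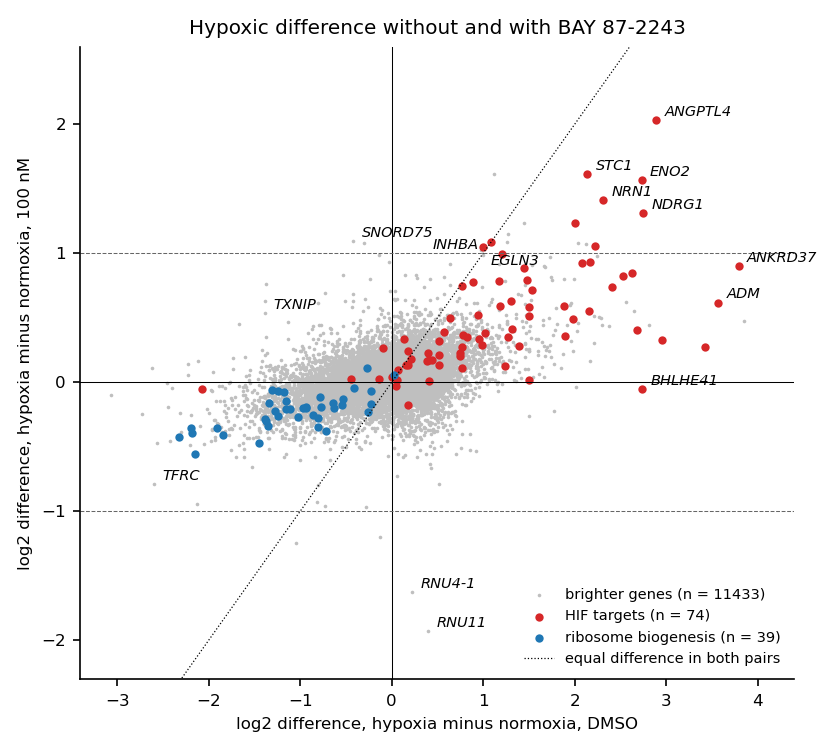
Each point is a brighter gene, with its log2 difference between hypoxia and normoxia with DMSO (x axis) and with 100 nM compound (y axis), with HIF targets in red and ribosome biogenesis genes in blue, dashed lines at 2-fold and a dotted line of equal difference. Most HIF targets lie to the right of 0 and below the dotted line, with ANGPTL4 at 2.89 and 2.03 and BHLHE41 at 2.74 and -0.05.

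The HIF targets were read as 5 groups by the role of their products. The lists were chosen with earlier results of these data known, so the shares beside all genes are a description. Of the 79 targets measured, 72 were above 0 with 100 nM, against 51.6% of all genes, 26 were at least 1.5-fold higher, against 0.972% of all genes, and 9 were at least 2-fold higher, against 0.147%. None was 1.5-fold lower. Their median log2 difference was 0.35 with 100 nM and 1.03 with DMSO, and over all genes it was 0.01 and 0.08. With DMSO 40 of the 79 were 2-fold higher. The difference with 100 nM was below that with DMSO for 69 of the 79, against 10018 of all 18417 genes. Across the 79 targets r was 0.611 and rho was 0.684, against 0.255 and 0.216 over all genes. CA9, PGAM1 and SLC16A3 could not be assigned a probe set of their own and were not analysed here. Members named below beyond the 4 largest differences of a group were chosen after their values were seen.

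Of the 18 secreted and surface proteins, 4 were 2-fold higher with 100 nM and 14 were above 0, with a median of 0.36 (1.10 with DMSO). The median with 100 nM was 0.68 when only brighter genes were kept. The members differed in how much of the difference with DMSO was left. ADM, the vasodilator adrenomedullin, read 351 under normoxia and 539 under hypoxia with 100 nM (0.62), and 479 and 5686 with DMSO (3.57). PDGFA, a platelet-derived growth factor chain, read 597 and 750 with 100 nM (0.33) against 542 and 4201 with DMSO (2.95). VEGFA, the main angiogenic growth factor, read 505 and 664 with 100 nM (0.39), and 1342 and 1999 with DMSO (0.58). For VEGFA the hypoxic value with compound was below the normoxic value with DMSO.

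Of the 24 genes of glucose uptake, glycolysis, glycogen and lactate, 2 were 2-fold higher, 7 were 1.5-fold higher and 23 were above 0, with a median of 0.23 (0.63 with DMSO). In this group the order of the genes was close to that with DMSO (r = 0.937, rho = 0.929 over 24 genes). After ENO2 and PFKFB4 came ALDOC, an aldolase isoform, at 1701 and 3246 (0.93), and HK2, hexokinase 2, at 1259 and 2186 (0.80). PDK1, the kinase that holds pyruvate dehydrogenase inactive, read 2795 and 4805 with 100 nM (0.78), and 3204 and 5946 with DMSO (0.89). The abundant housekeeping isoforms lay near 0 in both pairs, with GAPDH at 0.04 and 0.01, ENO1 at 0.02 and 0.06, and LDHA at -0.03 and 0.05. The lowest intensity among these 3 genes on any of the 6 arrays was 15178, close to the top of the scale, which ended at 25086 and 24936 on the arrays with 100 nM.

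In the mitophagy, stress and lipid droplet group of 13 genes, 2 were 2-fold higher and 12 were above 0, with a median of 0.50 (1.31 with DMSO). HILPDA, an inhibitor of lipid droplet lipolysis, read 264 and 474 with 100 nM (0.85) against 1127 and 6976 with DMSO (2.63). ANKRD37 read 137 and 255 with 100 nM (0.90) against 216 and 2995 with DMSO (3.79), the largest difference with DMSO of any target. PLIN2, the coat protein of lipid droplets, read 210 and 279 with 100 nM (0.41) against 368 and 2366 with DMSO (2.68). In these 3 genes the values of both arrays with compound lay nearer to the normoxic than to the hypoxic DMSO array. BNIP3, the partner of BNIP3L in mitophagy, read 5418 and 7662 with 100 nM (0.50) and 7149 and 11087 with DMSO (0.63).

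Of the 8 collagen-modifying enzymes, 0 were 2-fold higher, 1 was 1.5-fold higher and 8 were above 0, with a median of 0.29 (1.19 with DMSO). The prolyl 4-hydroxylase subunit P4HA2 read 824 and 1243 with 100 nM (0.59), the lysyl hydroxylase PLOD2 1385 and 2074 (0.58), and the lysyl oxidase LOXL2 651 and 957 (0.56). With DMSO these 3 enzymes were higher by 3.69-fold, 2.83-fold and 4.46-fold.

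Of the 16 regulators of oxygen sensing, transcription and chromatin, 1 was 2-fold higher and 15 were above 0, with a median of 0.33 (1.35 with DMSO). EGLN1, the prolyl hydroxylase PHD2, read 982 and 1652 with 100 nM (0.75) and 1552 and 2655 with DMSO (0.77), so that like EGLN3 it had the same size of difference in both pairs. BHLHE41, a circadian repressor, read 284 and 274 with 100 nM (-0.05) against 330 and 2195 with DMSO (2.74). JMJD6 also had almost no difference with compound, at 941 and 955 (0.02), against 745 and 2112 with DMSO (a fold of 2.83). KDM3A, a histone demethylase, kept 0.71 of difference (650 and 1065), against 1.54 with DMSO. Across these 16 genes the differences with 100 nM and with DMSO had r = -0.25.

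The subunits and modifiers of HIF itself had a median of 0.09 over 10 genes with 100 nM and ranged from -0.42 to 1.05. The highest were the hydroxylases EGLN3 (1.05) and EGLN1 (0.75) given above, and these 2 of the 10 were at least 1.5-fold higher. The lowest was ARNT2, a relative of ARNT, at 133 and 99.5 (-0.42). HIF1A read 5105 under normoxia and 4972 under hypoxia with 100 nM (-0.04), and 4980 and 3872 with DMSO (-0.36). ARNT, its partner, differed by 0.08, HIF1AN, the asparaginyl hydroxylase, by 0.05, and EPAS1, the HIF-2 subunit, by 0.35. VHL read 307 and 330 with 100 nM (0.11), and 622 and 310 with DMSO (-1.003), and its 622 on the normoxic DMSO array was above all other 5 arrays, which lay between 264 and 330.

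The letters ACGTG are the core of the sequence that HIF binds, with GCGTG as a related form. Both were searched on either strand in the 250 bases upstream of gene starts in RefSeq promoters (GRCh38.p14). Of all 27305 promoters, 43.1% held a match, and of those of all genes measured 51.1%. For the brighter genes the share was 57.8%, and for the HIF targets 71.6% (48 of 67). Of the 27 genes higher with 100 nM, 15 had a promoter in the table and 9 of them held a match (60%). ACGTG alone was held by 6 of these 15 (40%), by 21.1% of all genes measured and by 23.7% of the brighter genes. The stretches below are from some of the 27 genes, shown because their matches differ in orientation and in letters. EGLN3, which held none in this window, is shown as a contrast. Capitals mark a match on either strand, so CACGT and CACGC are reverse complements, and each stretch reads along the gene's strand. A match is a description of letters and not of binding.
ENO2, chr12:6914432-6914496, plus strand: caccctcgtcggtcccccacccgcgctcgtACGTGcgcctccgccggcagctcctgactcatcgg
AK4, chr1:65147430-65147494, plus strand: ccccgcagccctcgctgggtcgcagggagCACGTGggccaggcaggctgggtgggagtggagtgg
ANGPTL4, chr19:8363905-8363955, plus strand: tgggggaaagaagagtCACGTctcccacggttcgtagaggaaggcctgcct
INSIG2, chr2:118088346-118088410, plus strand: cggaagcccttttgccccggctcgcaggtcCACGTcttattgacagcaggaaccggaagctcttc
FGF11, chr17:7438086-7438150, plus strand: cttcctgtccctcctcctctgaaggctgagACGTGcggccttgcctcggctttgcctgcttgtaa
PFKFB4, chr3:48556935-48556999, minus strand: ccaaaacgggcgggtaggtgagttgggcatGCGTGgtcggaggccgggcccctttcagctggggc
EGLN3, chr14:33951075-33951139, minus strand: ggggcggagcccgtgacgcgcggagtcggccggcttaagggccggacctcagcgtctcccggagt
The match began 118 bases before the gene start in ENO2, 234 in ANGPTL4, 182 in FGF11 and 166 in PFKFB4. In INSIG2 the match shown began 95 bases before the start, and another began at 159. In AK4 the letters shown hold a match on each strand, which began 93 and 92 bases before the start, and a further one began at 145.

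The 4 brighter genes that were lower under hypoxia with 100 nM are RNA, histone and pseudogene loci. RNU11, the U11 RNA of the minor spliceosome, read 698 under normoxia and 183 under hypoxia with 100 nM (-1.93). On the other 4 arrays it read between 116 and 162, so the normoxic array with 100 nM alone stood high. RNU4-1, a U4 spliceosomal RNA gene, read 3328 and 1078 with 100 nM (-1.63), with 499 to 586 on the other 4 arrays. H3C7, a replication-dependent histone H3 gene, read 1424 and 622 (-1.20), with 658 to 827 elsewhere. HSP90AA6P, an HSP90 pseudogene, read 2685 and 1130 with 100 nM (-1.25), and 1881 and 912 with DMSO (-1.04). All 4 have close copies in the genome, and signal may be shared among them. For RNU11, RNU4-1 and H3C7 the normoxic array with 100 nM held the highest of the 6 values, and its part in these differences was not tested. Of the 12 lower genes 2 were also lower with DMSO, HSP90AA6P and the dim LIMD1-AS1, which is 16.7% of the 12 and 0.295% of the 677.

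Next in order among brighter genes, though under 2-fold, were GOT1L1 at 132 and 67.6 (-0.97), CRACR2A at 353 and 182 (-0.96), TWNK, the mitochondrial DNA helicase, at 460 and 240 (-0.94), and RNU4-2, a further U4 RNA gene, at 487 and 256 (-0.93). The other probe sets of CRACR2A gave 0.01 and 0.35, so this gene has no settled direction. Further along the order were TFRC, the transferrin receptor, at 6633 and 3841 (-0.79), and ESF1, a nucleolar protein, at 553 and 350 (-0.66). TWNK, TFRC and ESF1 had larger decreases with DMSO, of -2.13 for TWNK, -2.60 for TFRC and -1.52 for ESF1. TFRC read 1028 on the hypoxic DMSO array, 1056 on the array titled 10 nM and 2405 on the array titled 1 nM.

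A small difference with compound can come from a normoxic-like pair of values or from a hypoxic-like pair. Each gene 2-fold apart with DMSO was therefore placed by the midpoint of its DMSO arrays on the log2 scale. Of the 307 genes higher with DMSO, both arrays with 100 nM lay on the normoxic side for 207 (67.4%), both on the hypoxic side for 47 (15.3%), and 47 were split as with DMSO. Of the 677 genes lower with DMSO, 279 (41.2%) had both on the normoxic side and 273 (40.3%) both on the hypoxic side. The genes were chosen by the DMSO arrays that also set the midpoint, so these shares are a description. The arrays titled 10 nM and 1 nM, both hypoxic cultures, also lay on the hypoxic side for 266 of the 273 and for 43 of the 47. Among the arrays with DMSO or 100 nM, the normoxic DMSO array was alone on its side by the choice of these genes. Its part in the shares was not tested.

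Among the lists, HIF targets and ribosome biogenesis genes were mostly on the normoxic side, and ATF4 targets and immediate early genes mostly on the hypoxic side. Of the 41 HIF targets 2-fold apart with DMSO, 34 had both arrays with 100 nM on the normoxic side and 3 on the hypoxic side. The 3 were FOS, MAFF and SESN2. Of 20 ribosome biogenesis genes, all lower with DMSO, 16 lay on the normoxic side. Of 8 immediate early genes, 6 lay on the hypoxic side, and of 12 targets of ATF4, the transcription factor of the amino acid and integrated stress response, 9 did and 0 lay on the normoxic side.

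FOS, an AP-1 subunit, read 261 on the normoxic DMSO array, 2192 with 100 nM under normoxia, 2646 with 100 nM under hypoxia and 2803 on the hypoxic DMSO array. ZFP36, an mRNA decay factor, read 700, 3735, 4046 and 2532 in the same order. CHAC1, an ATF4-induced enzyme of glutathione breakdown, read 2107 on the normoxic DMSO array and between 123 and 173 on the other 5. SESN2, a stress-induced inhibitor of mTORC1 signalling, read 1196 there and between 266 and 284 on the other 5. For FOS, CHAC1 and SESN2 the normoxic DMSO array was the one that differed, and the arrays with 100 nM gave differences of 0.27, 0.04 and -0.05.

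The immediate early genes as a whole had a median of 0.25 with 100 nM, with 18 of 19 above 0 and 1, CCN1, past 1.5-fold (2352 and 3624). The median with DMSO was 0.83. The ATF4 targets had a median of 0.00 over 35 genes with 100 nM and -0.51 with DMSO, and 1 of them, VLDLR, was 2-fold higher with 100 nM. The sign of this median changed with the scaling. Of 7 metallothioneins, zinc and copper binding proteins, all were above 0 with 100 nM, with a median of 0.44 (0.91 with DMSO). MT1X read 2586 and 3953 with 100 nM (0.61), and 1334 and 5196 with DMSO (1.96).

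Ribosome biogenesis genes were lower by a small amount and in nearly every member. Of 39 genes, 37 were below 0 with 100 nM, against 48.4% of all genes, with a median of -0.20, and 0 were 1.5-fold lower. With DMSO the median was -1.03 and 20 were 2-fold lower. RRS1, a ribosome assembly factor, read 888 and 605 with 100 nM (-0.55), and 1070 and 242 with DMSO (-2.14). MAK16, a nucleolar factor of the large subunit, read 1298 and 969 with 100 nM (-0.42), and 1540 and 307 with DMSO (-2.33). The 31 cytosolic ribosomal protein genes had a median of 0.02 in the same pair.

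Heat shock proteins were also mostly lower, with 10 of 11 below 0 and a median of -0.15, among them the chaperone HSPH1 at 4598 and 3377 (-0.45). NRF2 targets, the genes of the antioxidant response, were below 0 for 18 of 23, with a median of -0.12. HMOX1, haem oxygenase 1, read 422 and 323 (-0.39). None of these 34 genes was 1.5-fold lower.

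Respiratory chain genes showed little difference. The 34 nuclear-encoded subunits of complex I lay between -0.24 and 0.25 with 100 nM, with a median of 0.06, and the 31 subunits of complexes II to V had a median of 0.07. Genes of G1/S and DNA replication had a median of -0.04 over 24 genes with 100 nM and -0.47 with DMSO. Genes of mitosis had a median of -0.01, the unfolded protein response 0.04, sterol and fatty acid synthesis 0.08, p53 targets 0.09 and interferon-stimulated genes 0.11. In none of these 5 lists was a gene 1.5-fold higher or lower with 100 nM. NF-kB targets had a median of 0.17 over 15 genes, with IL1B, a proinflammatory cytokine, at 117 and 221 (0.92) and IL1A at 446 and 744 (0.74). Reference genes had a median of 0.04, ACTB differed by less than 0.01 and B2M by -0.03. Among the genes that the study used as controls, the dim FOXO3 read 118 and 82.0 (-0.52) and the dim GATA4 129 and 123 (-0.06), and EGLN2 could not be assigned a probe set of its own.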

How the data were processed

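RNA of H460 cells was measured on 6 Affymetrix Human Gene 1.0 ST arrays, 1 per condition. The authors deposited linear intensity values for 33297 probe sets. RMA is named, with no version, in the notes of the submitters, whereas the methods describe background correction with MAS 5.0 software and evaluation with Expressionist, so which summary gave the values is not settled. The genome build behind the probe sets is not given in the sources used here. 

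Gene names came from the annotation of the platform (19460 with 1 symbol, 1754 with several, 12083 not listed). For 19429 the symbol is current in RefSeq (GRCh38.p14), which also gave the sequences. Each of the 18417 genes was represented by its brightest probe set, by mean over 6 arrays, and 769 had several. The log2 of the intensity was taken with no pseudocount. No filter was applied beside the split at the array median. The number of arrays limits the precision, and no test was possible. The steps were tested on simulated data.

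Genes named are the 25 largest increases and 15 largest decreases among brighter genes, up to 4 members of each list with the largest difference, the HIF subunits and hydroxylases, and the genes the study measured by real-time PCR, as far as a probe set was assigned to them. Others were chosen after their values were seen. The comparison, the members and the lists were chosen with earlier results of these data known. Each list was described by counts and a median, beside all genes. Alternatives were quantile normalization, centring on the median, brighter genes only, the mean over probe sets, an added 32 before taking log2, 1.5-fold or 3-fold as the threshold, the mean of a list, and ACGTG alone as the motif. Scripts ran in Python 3.11.15 with pandas 2.3.3, numpy 2.4.6, matplotlib 3.10.9 and scipy 1.17.1.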

Additional observations from a re-analysis of the deposited data

Results flagged for a closer look

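Among the genes named by rule, 7 brighter genes reached 2-fold in one pair of arrays and had the opposite sign in the other. An opposite sign was not rare among all brighter genes. Of the 585 that were 2-fold lower with DMSO, 108 were above 0 with 100 nM. Of the 231 that were 2-fold higher with DMSO, 222 were above 0 with 100 nM. For none of the 7 was the difference between the pairs tested. RNU11 was lower under hypoxia by -1.93 on the log2 scale with 100 nM and differed by 0.40 with DMSO, and RNU4-1 by -1.63 and 0.22. SNORD75 was higher by 1.10 with 100 nM and differed by -0.42 with DMSO, and SNORA3B by 1.08 and -0.30. TXNIP, a glucose-responsive inhibitor of thioredoxin, differed by 0.54 with 100 nM (2200 and 3194) and by -1.38 with DMSO (7209 and 2762). GADD45A, a p53 target of the DNA damage response, differed by 0.46 with 100 nM and by -1.13 with DMSO, and VHL by 0.11 and -1.003. BHLHE41, which was named after its values were seen, also changed sign, at -0.05 with 100 nM and 2.74 with DMSO. For TXNIP, GADD45A and VHL the normoxic DMSO array was the highest of the 6, and for RNU11 and RNU4-1 the normoxic array with 100 nM was.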

How the results depend on the processing

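No paired analysis was possible because each group holds 1 array, and no array could be left out. No result changed direction among those counted past 2-fold, and the count of 27 genes higher and 12 lower stayed within 1.5 times under quantile normalization, centring and the mean over probe sets. With 32 added before log2 it was 14 higher and 4 lower, and with brighter genes only 4 lower. At 1.5-fold it was 179 and 138, and at 3-fold 5 and 2. The overlap of 14 genes higher in both pairs was 89 at 1.5-fold and 2 at 3-fold. The correlation of 0.255 across genes was 0.465 with brighter genes only. For secreted proteins the median of 0.36 was 0.68 with brighter genes only and the mean was 0.57, and for glucose genes the mean was 0.41 against a median of 0.23. The 2-fold counts of the HIF groups became, at 1.5-fold and 3-fold, 8 and 2 for secreted proteins, 7 and 0 for glucose genes, 6 and 0 for mitophagy and lipid droplets, 1 for collagen enzymes at 1.5-fold, 4 and 0 for regulators, and 26 and 2 for all targets. With 32 added, mitophagy and lipid droplets had 1. The side of the DMSO midpoint was placed under alternatives chosen after seeing the data. The genes higher with DMSO had 60.6% on the normoxic side at 1.5-fold and 20.9% on the hypoxic side at 3-fold. The genes lower with DMSO had 47.3% on the normoxic and 34.6% on the hypoxic side with centring, 46.2% and 36.5% at 1.5-fold, and 34.2% and 47.4% at 3-fold. SNRPA1, SNORA3B, FGF11, INSIG2 and VLDLR were under 2-fold with 32 added, VLDLR also with quantile normalization and AK4 with the mean of its probe sets. The median of ATF4 targets was -0.02 with quantile normalization and -0.05 with brighter genes only, that of mitosis genes was 0.00 as a mean, and that of blood, endothelial and fibroblast markers turned from -0.05 to 0.12 with brighter genes only. The cause of these shifts was not tested. Low signal limits the dimmer genes, 95% of which differed by less than 1.42-fold against 1.29-fold for brighter genes.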

Other observations

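Of the 12083 probe sets not listed in the platform annotation, 423 were at least 2-fold higher under hypoxia with 100 nM (3.50%) and 226 were lower (1.87%), against 1.36% and 0.721% of all 33297 probe sets and 0.149% and 0.0668% of the 19460 with 1 symbol. Of the 4000 of them that were bright by the same rule, 62 were higher and 25 were lower. Of all 17083 bright probe sets 80 were higher and 29 lower, and of the 12053 bright ones with 1 symbol 18 and 4. Of the 15 spliceosomal RNU genes, grouped after their values were seen, 2 were 2-fold lower, with a median of -0.23. These were RNU11 and RNU4-1, whose values were known when the group was formed. Of 63 histone genes, grouped in the same way, 1 was 2-fold lower and the median was 0.03. Of all genes 0.0652% were 2-fold lower, and their median was 0.01.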
